A study of Mus musculus with 4 samples.

Results

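In mouse haematopoietic progenitors transformed by an MLL-ENL fusion, 22 of 55426 annotated genes were close to silent with the MLL-ENL fusion and were transcribed with a shortened fusion, MLL-ENL dYEATS (dYEATS below). They were chosen by their expected counts, which are estimates of the reads from each gene: at least 50 in each of the 2 dYEATS libraries and at most 10 summed over the 2 MLL-ENL libraries. In all, 30 genes met both thresholds, and 8 of them stand on a list of 10 genes that were set aside and are not described. Since the counts chose the genes, the difference between the groups is a description, and the calls and counting intervals printed for these genes support nothing. The 22 genes are 0.208% of the 10559 genes that reached the minimum in both dYEATS libraries.

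MLL (Kmt2a) is a histone methyltransferase whose N-terminal part is joined to ENL (Mllt1) in this fusion. ENL recruits factors that release paused RNA polymerase, and its YEATS domain binds acylated lysines on histones. Cells that carry MLL fusions are held at an immature myeloid stage, and the genes that stay silent in them include genes of later blood cells and genes of other tissues.

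Lineage-negative bone marrow of the mouse was the source of both groups, and both were grown in the same medium with serum. One group carried the MLL-ENL fusion and the other a fusion whose ENL portion runs from residue 372 to residue 559, so that all ENL sequence before that point, the YEATS domain included, is absent. For the MLL-ENL fusion, the sources used here do not give the ENL residues. Poly(A) RNA was sequenced in 2 libraries per group, which the series calls technical replicates. Genotype and line therefore cannot be told apart, and p-values measure only the spread between these libraries. Nothing on the age, sex or strain of the animals was used.

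Totals were 27812855 to 28814798 expected counts per library, so that 3 counts, the limit that a count of 0 allows, correspond to 0.102 to 0.112 CPM (expected counts scaled to a common library total with TMM factors). Divided by its degrees of freedom, the chi-square over genes was 89.8 between the MLL-ENL libraries and 1.99 between those of dYEATS. Mllt1 levels were 67.7 and 62.0 CPM with MLL-ENL and 63.9 and 59.2 CPM with dYEATS, and its reads cannot tell the 2 fusions apart. Xist, the RNA that coats the inactive X chromosome, lay at 98.3 and 143 CPM against 3.23 and 2.51 CPM, and Ddx3y, Kdm5d, Uty and Eif2s3y on the Y chromosome had 0 counts in each library. All 4 haematopoietic markers (Ptprc, Spi1, Cd34 and Kit) had counts, with a summed level of 411 to 514 CPM in the MLL-ENL and 517 to 520 CPM in the dYEATS libraries. Summed levels of 10 granulocyte markers were 5721 to 6834 CPM against 3714 to 3748 CPM, and those of 8 monocyte and macrophage markers, of which C1qa and Marco were at 0, were 1149 to 1183 CPM against 848 to 867 CPM. Within these 3 lists Spi1, S100a8, S100a9, Csf1r, Adgre1 and Ccr2 rose and Kit, Mpo, Elane, Prtn3, Ngp and Ly6c2 fell (adjusted p under 0.05 with edgeR), and the part of such cells in the levels of the 22 genes was not tested. The 5 T and NK cell markers, with Cd3e and Ncr1 at 0, summed to 6.54 to 7.95 CPM against 0.802 to 1.02 CPM, and Lck and Thy1 fell. The 5 endothelial markers (Cdh5, Emcn, Kdr and Tie1 at 0) reached at most 0.0340 CPM, the 4 epithelial markers (Epcam and Krt18 at 0) 0.0373 CPM and the 6 stromal markers (Dcn and Lum at 0) 0.672 CPM. The summed level of 6 mast cell and basophil markers, with Cpa3, Fcer1a and Prss34 at 0, was 7.82 to 9.11 CPM against 14.7 to 16.3 CPM, and its part in the levels of the 22 genes was not tested. Of the 3 markers of this list that were tested, only Gata2 was called, and it rose (adjusted p under 0.05 with edgeR). In bulk samples such as these, fewer cells of a type and less RNA per cell cannot be told apart.

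The 22 genes spread over 14 chromosomes. Chromosomes 5 and 13 held 3 each, 4 chromosomes held 2 and 8 held 1, and no member lay on X or Y. Neighbouring members on a chromosome were 17.8 to 58.4 Mb apart, and no pair lay within 500 kb. Of the 22, 18 (81.8%) are annotated as protein-coding, against 94.3% of the genes with the minimum in both dYEATS libraries. The other 4 are 2 lincRNAs, 1 processed transcript and 1 transcribed pseudogene.

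Promoter sequences are shown for 6 members because the promoters of these genes differ widely in their content of CpG dinucleotides, which are clustered in the promoters of most widely expressed genes and scarce in those of many tissue-restricted ones. Each is the 250 bases before the most upstream RefSeq start site of the gene (GRCm38.p6), which need not be the start in use in these cells. It is read 5′ to 3′ on the strand of the gene, with CpG dinucleotides in capitals. The receptor gene Mrgpra2b (chr7:47489583-47489832, minus strand) has 0, the cytochrome gene Cyp2a5 (chr7:26835089-26835338, plus strand) 1, the peptide gene Adm2 (chr15:89322470-89322719, plus strand) 4, the channel gene P2rx7 (chr5:122643677-122643926, plus strand) 6, the membrane protein gene Tmem267 (chr13:119487836-119488085, plus strand) 17 and the transcription factor gene Tcf7l2 (chr19:55741560-55741809, plus strand) 30.
Mrgpra2b: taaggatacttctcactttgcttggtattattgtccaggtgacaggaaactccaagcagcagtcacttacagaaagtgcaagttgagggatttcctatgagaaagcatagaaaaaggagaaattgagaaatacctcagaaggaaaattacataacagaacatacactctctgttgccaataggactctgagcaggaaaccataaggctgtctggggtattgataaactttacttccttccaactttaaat
Cyp2a5: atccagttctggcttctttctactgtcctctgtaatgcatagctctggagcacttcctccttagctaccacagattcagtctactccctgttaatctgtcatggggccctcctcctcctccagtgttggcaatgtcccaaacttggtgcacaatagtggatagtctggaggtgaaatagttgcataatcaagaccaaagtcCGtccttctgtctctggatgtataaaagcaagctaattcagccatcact
Adm2: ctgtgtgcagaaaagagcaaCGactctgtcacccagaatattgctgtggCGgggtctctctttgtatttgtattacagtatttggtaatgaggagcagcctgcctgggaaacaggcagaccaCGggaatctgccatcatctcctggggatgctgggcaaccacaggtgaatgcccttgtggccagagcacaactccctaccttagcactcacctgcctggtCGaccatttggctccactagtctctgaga
P2rx7: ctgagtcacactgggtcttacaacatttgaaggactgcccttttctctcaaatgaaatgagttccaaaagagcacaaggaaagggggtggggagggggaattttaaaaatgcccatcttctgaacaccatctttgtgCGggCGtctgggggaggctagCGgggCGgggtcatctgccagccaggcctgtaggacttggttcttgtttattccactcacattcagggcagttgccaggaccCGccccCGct
Tmem267: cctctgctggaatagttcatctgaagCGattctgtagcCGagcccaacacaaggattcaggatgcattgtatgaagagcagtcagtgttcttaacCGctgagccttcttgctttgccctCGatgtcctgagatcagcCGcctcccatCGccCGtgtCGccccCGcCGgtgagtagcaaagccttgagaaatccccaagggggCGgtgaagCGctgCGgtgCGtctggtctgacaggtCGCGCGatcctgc
Tcf7l2: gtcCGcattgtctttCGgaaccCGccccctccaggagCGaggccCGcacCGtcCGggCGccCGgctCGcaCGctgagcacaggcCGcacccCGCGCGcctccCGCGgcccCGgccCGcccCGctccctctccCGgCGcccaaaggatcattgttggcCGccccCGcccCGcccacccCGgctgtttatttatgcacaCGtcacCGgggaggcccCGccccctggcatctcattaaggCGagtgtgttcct

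RefSeq windows of 300 bases (250 before and 50 after the most upstream start) were matched by symbol for 15 of the 22 genes. The 7 without a window were Celf4, Cldn23, Ggt5, Hist1h4m, Rps4l, A830012C17Rik and C78283. The ratio of observed to expected CpG dinucleotides was at least 0.6 in 5 of the 15 (33.3%): Tcf7l2, Tmem267, Smox, Tspan9 and Prrg4. Among 8163 other genes with the minimum in both dYEATS libraries it was at least 0.6 in 77.5%, and among all 27025 promoters of the table in 36.5%. The members were low in abundance, so genes of like level were set beside them: of 1317 other genes at 2 to 10 CPM in the dYEATS libraries 61.6% reached 0.6, and of the 14 members at this level 35.7%. The median ratio was 0.380 in the members and 0.389 in all 27025 promoters. It was 0.692 in genes at 2 to 10 CPM and 0.794 in all genes with the minimum. The lowest ratios were those of Mrgpra2b (0.0847), Cyp2a5 (0.117) and Acsbg1 (0.122). Median GC content was 49.7% in the members, 52.7% in all 27025 promoters and 61% in all genes with the minimum.

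**Figure D1:**
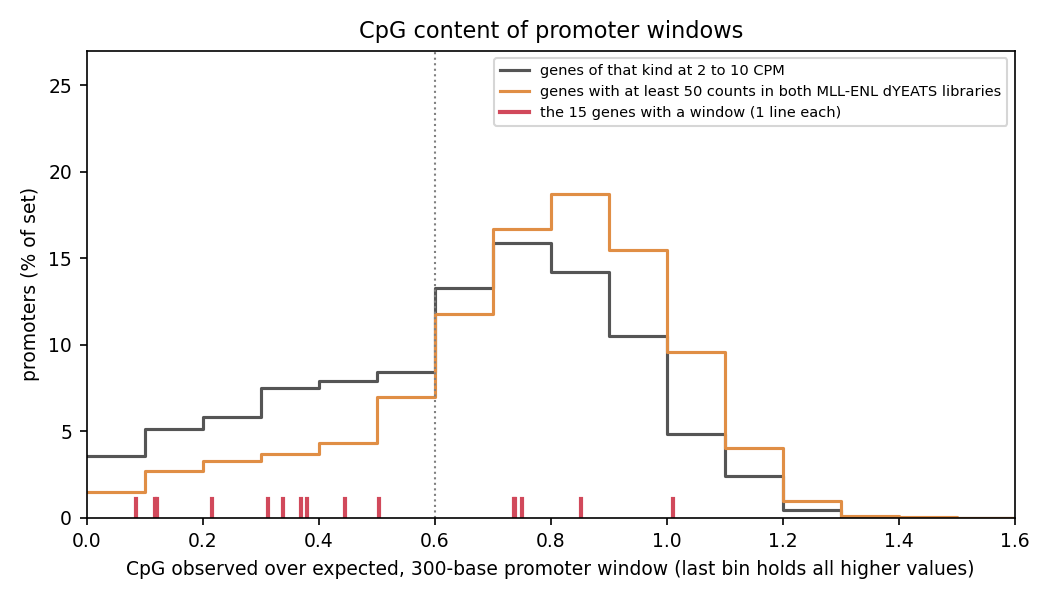
Ratio of observed to expected CpG dinucleotides in 300-base RefSeq promoter windows (horizontal axis) against the percentage of promoters per bin of 0.1 (vertical axis). Red lines mark the 15 members with a window, the orange line 8163 other genes with at least 50 counts in both dYEATS libraries and the grey line the 1317 of these at 2 to 10 CPM. Of the red lines 10 lie left of the dotted line at 0.6, where most of the promoters of both other sets lie right of it. The set of all 27025 promoters, with a median ratio of 0.389, is not drawn.

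Sequence motifs of myeloid and general promoter factors were searched on both strands of the same windows, and a match is a description of letters, not a site in use. The TATA box TATAAA stood in Cyp2a5, 29 bases before the start, and in Rgs3, 100 bases before it, which is 2 of 15 (13.3%) against 6.37% of genes with the minimum and 14.2% of all promoters. The AP-1 motif TGANTCA stood in P2rx7 (6.67% against 4.47% and 7.92%), the PU.1 core GAGGAAG in Cyp2a5 (6.67% against 13.4% and 13.5%), the RUNX core TGTGGTT in Adm2 (6.67% against 3.68% and 5.37%) and the GATA motif AGATAA in Gm3604 (6.67% against 5.77% and 11.4%). The CRE motif TGACGTCA and the E-box CACGTG were in 0 of 15 windows, against 3.63% and 10.9% of genes with the minimum and 1.85% and 7.24% of all promoters. None of these motifs was shared by more than 2 members.

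In the dYEATS libraries the members lay between 2.02 and 34.3 CPM, with a median of 3.79 CPM, and between 0.840 and 17.4 FPKM, the authors' measure per length of gene, with a median of 2.38 FPKM. None of the 22 reached the median of all genes with the minimum, which was 18.6 FPKM. At the level of whole libraries the members were thus low in abundance. In the MLL-ENL libraries 4 members had 0 counts, 5 had 1 to 3 and 13 had 4 to 10. Every member passed the filter on low counts through its dYEATS libraries, and 22 of 22 were called higher at an adjusted p under 0.05 with edgeR (quasi-likelihood), where 7.04% of all 13245 genes tested were. The rule used that contrast, so nothing is read from the 22 calls. The 2 dYEATS libraries differed by -0.45 to 0.47 on the log2 scale over the members, with a median size of 0.115 against 0.0506 for all genes with the minimum. The latter had a median of 37.4 CPM, against 3.79 CPM in the members, and genes of like level were not compared here.

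**Figure D2:**
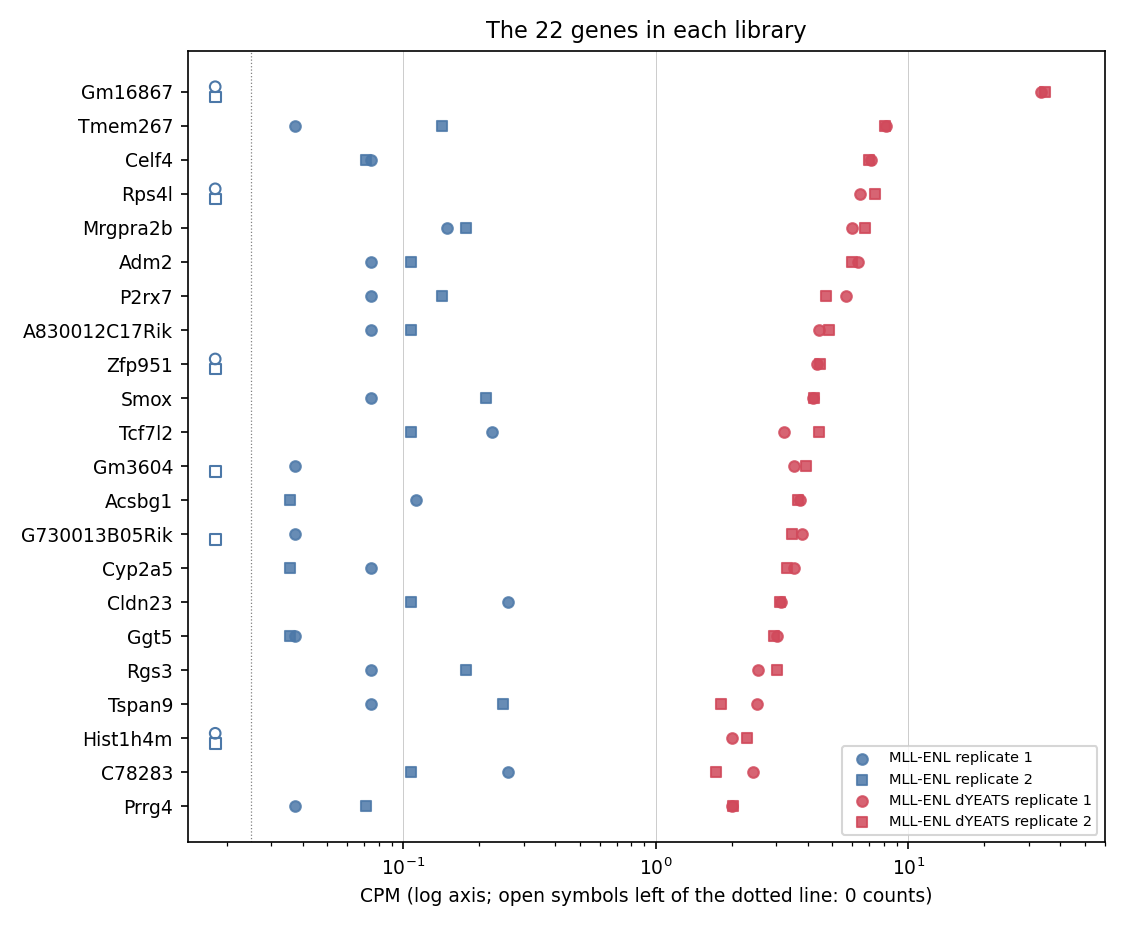
CPM of each of the 22 genes (rows, in order of the mean dYEATS level) in each library, on a logarithmic axis. Blue symbols are MLL-ENL and red symbols dYEATS libraries (circles replicate 1, squares replicate 2), and open symbols left of the dotted line stand for 0 counts. Each gene has its red symbols at 1.74 CPM or more and its blue symbols at 0.261 CPM or less.

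Surface receptors, adhesion and other membrane proteins made up 6 of the 22, at 2.02 to 8.10 CPM. P2rx7 (chromosome 5, 122643911 to 122691432), the ATP-gated cation channel through which macrophages sense extracellular ATP, had 2 and 4 counts with MLL-ENL and 167 and 136 counts with dYEATS. Its ratio of depth-scaled counts was 47.8 (95% exact binomial interval 21.7 to 131, which like all intervals here covers counting error only). Mrgpra2b (chromosome 7, 47463806 to 47528862), a Mas-related G-protein-coupled receptor, had 4 and 5 against 176 and 193 counts. Cldn23, a claudin of tight junctions, had 7 and 3 against 92 and 89 counts (ratio 17.1, 9.10 to 36.3), and with a sum of 10 it sat at the upper limit of the rule. The tetraspanin Tspan9, of a family that organises receptors in the membrane, had 2 and 7 against 74 and 52 counts. Prrg4, a membrane protein with a Gla domain, had 1 and 2 against 59 and 58 counts and was the least abundant member at 2.02 ± 0.0102 CPM (SD, n = 2). The most abundant of the group was Tmem267, a transmembrane protein of chromosome 13 (119488039 to 119611059), with 1 and 4 against 239 and 231 counts (ratio 88.9, 37.8 to 275). The libraries of the 2 groups did not overlap in any of the 6, as the rule requires.

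Secreted and signalling proteins were represented by 2 members. Adm2, also called intermedin, is a secreted peptide of the calcitonin family and lies on chromosome 15 (89322720 to 89324731). It had 2 and 3 counts with MLL-ENL and 186 and 171 with dYEATS (6.15 ± 0.260 CPM, ratio 67.6, 28.7 to 209). Rgs3, which shortens signalling of G-protein-coupled receptors by speeding GTP hydrolysis, had 2 and 5 against 75 and 87 counts (ratio 21.9, 10.4 to 55.3).

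Enzymes counted 4 members, within a narrow range of 2.98 to 4.22 CPM. Smox, which oxidises spermine to spermidine, had 2 and 6 against 123 and 122 counts (ratio 29.0, 14.5 to 67.9). Acsbg1, an acyl-CoA synthetase that activates long-chain fatty acids and is best known from brain, had 3 and 1 against 110 and 105 counts. Cyp2a5, a cytochrome P450 of the liver, had 2 and 1 against 104 and 95 counts. Ggt5, a gamma-glutamyltransferase that acts on glutathione conjugates such as leukotriene C4, had 1 and 1 against 89 and 84 counts (ratio 81.9, 22.3 to 681). These 4 enzymes belong to separate pathways.

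Nucleic acid-binding and chromatin proteins were 4, of which Zfp951 and Hist1h4m had 0 counts in both MLL-ENL libraries. Tcf7l2, the partner of beta-catenin in Wnt signalling, had 6 and 3 against 95 and 127 counts (ratio 23.3, 12.1 to 51.7), and its dYEATS libraries differed by -0.45 on the log2 scale, 1 of the widest gaps among the members. Celf4, an RNA-binding protein of neurons on chromosome 18 (25477632 to 25754157), had 2 and 2 against 210 and 201 counts (7.08 ± 0.0978 CPM, ratio 97.2, 37.7 to 359). The zinc finger gene Zfp951 had 128 counts in each dYEATS library, at least 39.4-fold higher than the floor of 3 counts per library. Hist1h4m, a replication-type histone H4 gene, had 59 and 66 counts in the dYEATS libraries, at least 19.2-fold above that floor. Such histone genes end without a poly(A) tail, and this library type selects poly(A) RNA.

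Predicted, pseudogene and non-coding genes were the remaining 6 and included the most abundant member. Gm16867, a predicted protein-coding gene of chromosome 14 (69363504 to 69503362), had 0 and 0 against 991 and 1000 counts (34.3 ± 0.808 CPM, at least 306-fold above the floor). Rps4l, an intronless copy of a ribosomal protein gene on chromosome 6, had 0 and 0 against 189 and 211 counts (at least 61.6-fold). The predicted protein-coding gene Gm3604 had 1 and 0 against 104 and 113 counts (ratio 205, 36.5 to 8147). The lincRNA G730013B05Rik had 1 and 0 against 112 and 99 counts (ratio 200, 35.4 to 7923), and the processed transcript A830012C17Rik had 2 and 3 against 130 and 139. C78283, a lincRNA of chromosome 5 (73946381 to 73948376), had 7 and 3 against 71 and 50 counts and lay at both limits of the rule. Of the 9 members with at most 3 MLL-ENL counts, 4 belong to this group.

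Genes close to the thresholds show how sharp the selection was. Just outside the limit on MLL-ENL counts were Etl4 (7 and 5 against 79 and 82 counts), Tmem268 (7 and 5 against 111 and 128), Gm30042 (9 and 4 against 113 and 119), Adamts2 (6 and 8 against 227 and 201) and Plxna1 (6 and 9 against 279 and 286). Just inside it, beside C78283 and Cldn23, were Tspan9, Tcf7l2 and Mrgpra2b with a sum of 9. Just under the minimum in the dYEATS libraries were B630019K06Rik, Dusp22 and Slc15a3, each with 49 counts in the lower library, and 4932441J04Rik and Gm49345 with 48. Just above it were C78283 (50), Tspan9 (52), Prrg4 (58), Hist1h4m (59) and Rgs3 (75).

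Reads of near-identical genes can be split between copies, and how multi-mapping reads were assigned is known here no further than that RSEM was used. Every member's annotated transcripts were therefore cut into words of 50 bases and searched in the transcripts of all other genes. In 15 of 22 members fewer than 10% of the words occurred in another gene on the same strand, and in 10 members none did. Gm16867 (93.0%), Hist1h4m (89.8%) and Mrgpra2b (81.2%) shared most of their sequence, and Cyp2a5 (37.0%), Rps4l (14.9%), Gm3604 (13.5%) and Rgs3 (11.4%) shared a part of it. The values of these 7 genes are uncertain to that extent.

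**Figure D3:**
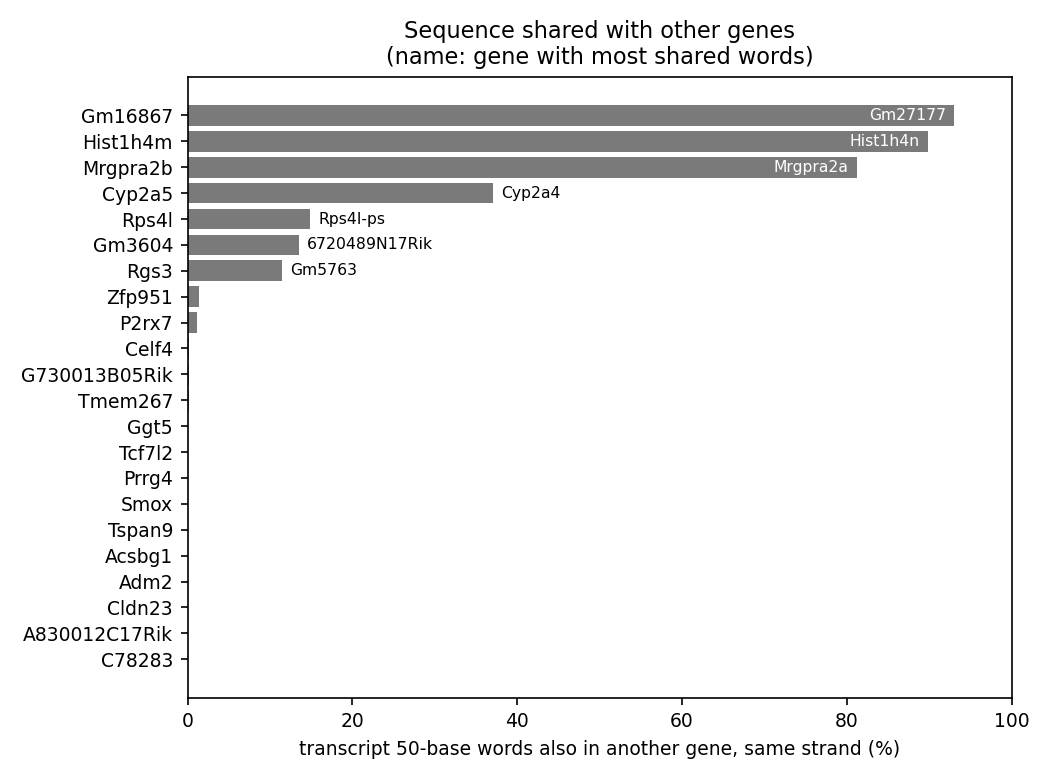
Percentage of the distinct 50-base words of each gene's GENCODE M21 transcripts that also occur in transcripts of another gene on the same strand (horizontal axis), for the 22 genes. The name at a bar is the gene that shares most words, and 3 genes exceed 50%.

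The copy changed the picture for the histone gene. Hist1h4n, the gene that shares 89.8% of the words of Hist1h4m and lies 19.6 kb from it, had 239 and 167 counts with MLL-ENL and 90 and 76 with dYEATS. Summed over both genes the level was 8.92 and 5.94 CPM with MLL-ENL and 5.07 and 4.95 CPM with dYEATS. The sum was not higher in the dYEATS libraries. Hist1h4i, a histone H4 gene that shares 34.3% of the words, had 152 and 133 against 195 and 184 counts. For Mrgpra2b, Gm16867, Cyp2a5, Rps4l and Rgs3 the gene that shares most words on the same strand had few or no counts. Mrgpra2a, with 81.2% of the words of Mrgpra2b, had 0 and 0 against 9 and 12 counts, and the sum of the pair went from 0.149 and 0.178 CPM to 6.30 and 7.15 CPM. Gm27177, with 87.5% of the words of Gm16867, had 20 and 9 against 4 and 2 counts, and that pair went from 0.746 and 0.320 CPM to 33.9 and 34.9 CPM. Cyp2a4, the closest relative of Cyp2a5, and Rps4l-ps, that of Rps4l, had 0 counts in each library. The zinc finger gene 6720489N17Rik, chosen after its values were seen, shares 7.19% of the words of Gm3604 and had 34 and 44 against 134 and 141 counts.

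**Figure D4:**
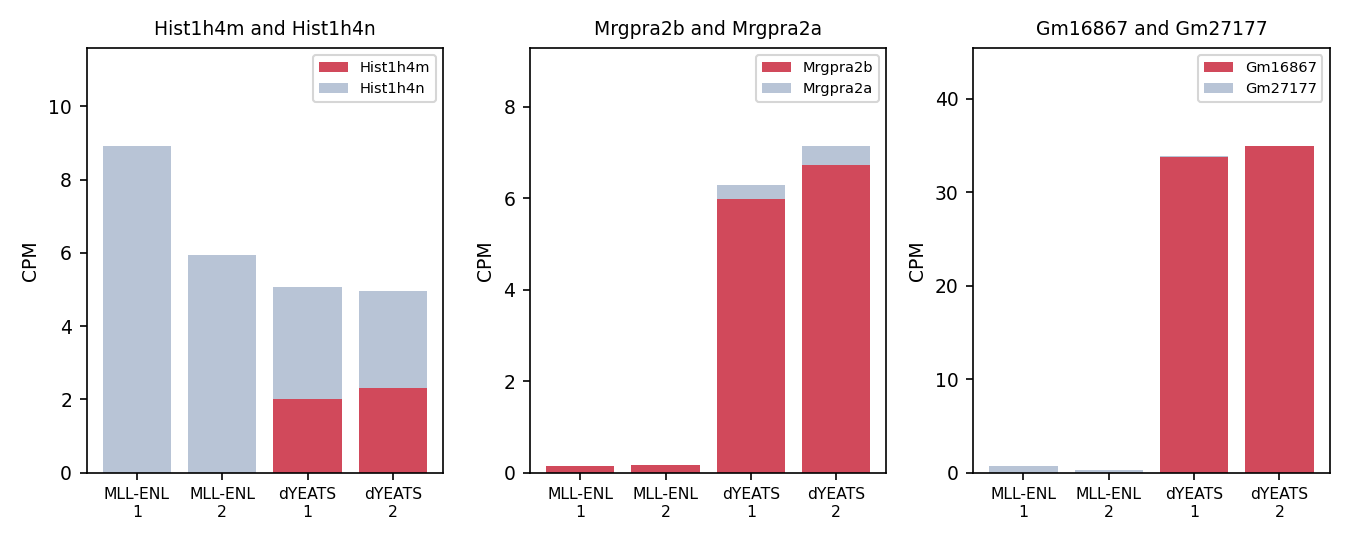
CPM in each library of 3 members (red) stacked with the gene that shares most of their sequence (grey-blue). The stacked bars of Hist1h4m and Hist1h4n are at 5.94 CPM or more with MLL-ENL and at 5.07 CPM or less with dYEATS, whereas those of the other 2 pairs are higher with dYEATS.

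Some members share their locus with another gene whose transcripts overlap theirs on the opposite strand, and without a stated strand setting reads from the shared bases cannot be assigned. A830012C17Rik (chromosome 4, 4138321 to 4188703) starts inside Penk, the proenkephalin gene, with an overlap of 499 bases in head-to-head orientation. Penk had 88 and 86 against 2820 and 2843 counts (3.17 ± 0.161 against 97.6 ± 2.23 CPM), with a log2 fold change of 4.94 ± 0.13 SE and an adjusted p of 1.88e-04 by edgeR. Of the 50-base words of A830012C17Rik 8.42% are antisense to Penk transcripts. Tmem267 overlaps 3110070M22Rik by 345 bases at its start, and this divergent gene had 0 and 0 against 18 and 23 counts. Gm38378, which lies whole inside Gm16867 on its strand, had 0 and 0 against 16 and 14 counts, values that are not independent of the choice of Gm16867. Entpd4, which overlaps the same gene on the opposite strand by 3767 bases, lay at 55.5 ± 0.142 and 61.1 ± 2.73 CPM (edgeR adjusted p = 0.426). Of the words of Gm16867, 25.8% are antisense to Entpd4 transcripts and 25.8% to those of Entpd4b. The latter gene had 840 and 802 against 1021 and 953 counts. Rps4l lies within Tmtc1 on the opposite strand, and Tmtc1 had 0 and 1 against 8 and 5 counts. In all, 20 genes overlapped a member and 4 passed the filter, of which Penk, 3110070M22Rik and Gm38378 were called higher, where 7.04% of all genes tested were. Both 3110070M22Rik and Gm38378 passed the filter through their dYEATS libraries, so nothing is read from this count.

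Genes beside the members, which the rule did not choose, were then examined to see whether whole neighbourhoods changed. The nearest protein-coding gene on each side that does not overlap the member gave 44 flanking genes, at 0.215 to 4519 kb with a median of 33.7 kb. Of these 19 were under the detection filter, 7 of them at 0 counts in all libraries. Of the 25 tested, 3 (12%) rose and 3 (12%) fell (adjusted p under 0.05 with edgeR), where 7.04% and 9.84% of all genes tested did. Among 8917 tested flanking genes of all other genes with the minimum in both dYEATS libraries the shares were 7.37% and 9.72%. At 25 genes these shares are near the background. Hist1h4n, 1 of the 3 that fell, shares 89.8% of the words of its member Hist1h4m. The call of Hist1h4n is therefore not independent of the choice of that member. The count that rose moved with the libraries used, to 10 and 16 without MLL-ENL replicate 1 and 2 (26.9% and 33.6% of all genes tested were then called higher) and to 2 and 1 without dYEATS replicate 1 and 2 (about 4% each). The median log2 fold change of the 25 was 0.16, against -0.01 over all genes tested. Within 100 kb of a member, 3 of 61 tested genes rose (4.92%) and 6 fell (9.84%). For 16 of the 22 members neither flanking gene was called, and for 4 of these neither could be, since neither was tested.

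**Figure D5:**
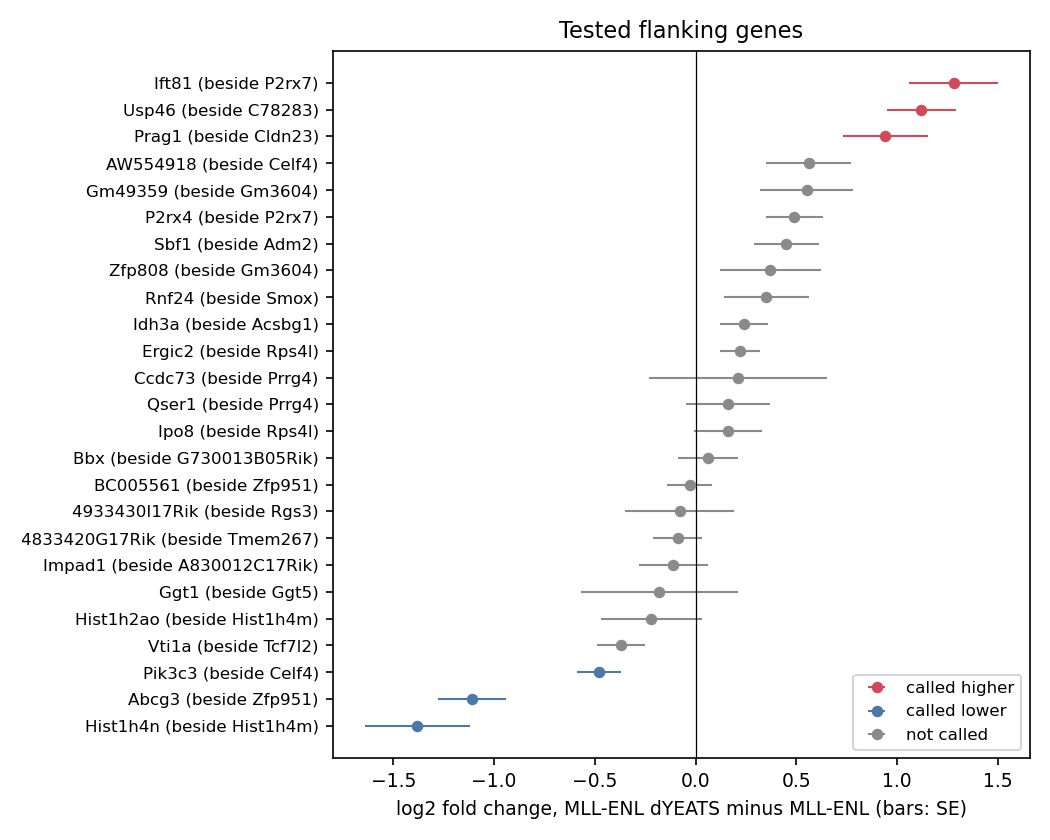
Log2 fold change (dYEATS minus MLL-ENL) with its standard error for the 25 tested flanking genes, each named with its member. Red points are called higher, blue points lower and grey points neither, and the called genes run from -1.38 for Hist1h4n to 1.28 for Ift81.

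Flanking genes that rose were Usp46, Ift81 and Prag1. Usp46, a deubiquitinase 50.1 kb from C78283, went from 25.3 and 33.7 CPM to 60.5 and 67.6 CPM (log2 fold change 1.12 ± 0.17 SE, edgeR adjusted p = 0.0119) and was called in all 10 other fits that were run. Ift81, an intraflagellar transport protein 29.4 kb from P2rx7, went from 1.23 and 1.07 to 2.69 and 2.89 CPM (1.28 ± 0.22 SE, edgeR adjusted p = 0.0179). Its call ended without dYEATS replicate 2 (0.0948) and with limma on log2 FPKM, where the difference was 0.17 with a pseudocount of 1 and 0.32 with 0.1. Prag1, a scaffold related to kinases, lies 268 kb from Cldn23 and went from 2.76 and 3.77 to 5.99 and 6.56 CPM (0.94 ± 0.21 SE, edgeR adjusted p = 0.0386). The call of Prag1 ended without dYEATS replicate 1 or 2 (edgeR adjusted p = 0.0813 and 0.183) and in both limma fits (0.0630 and 0.0903). P2rx4, the paralogue of P2rx7 that lies 16.1 kb from it, was at 15.8 ± 1.76 and 22.1 ± 1.43 CPM and was not called (edgeR adjusted p = 0.0679).

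Flanking genes that fell were Hist1h4n, described above, Abcg3 and Pik3c3. Abcg3, an ATP-binding cassette protein 75.0 kb from Zfp951, went from 6.87 and 6.86 to 3.30 and 3.03 CPM (log2 fold change -1.11 ± 0.17 SE, edgeR adjusted p = 0.0109), which was not called once dYEATS replicate 2 was left out (0.0731). Pik3c3, the lipid kinase of autophagy, is the nearest protein-coding gene on one side of Celf4 at 4519 kb and had a log2 fold change of -0.48 ± 0.11 SE (edgeR adjusted p = 0.0372). That call ended without dYEATS replicate 1 or 2 (0.558 and 0.533), without a filter (0.0571) and in limma's fits of log2 FPKM (0.132 and 0.122). The other flank of Celf4, AW554918, was at 6.61 and 9.60 against 12.2 and 11.8 CPM (edgeR adjusted p = 0.125). Idh3a, whose 3′ end lies 0.215 kb from that of Acsbg1 on the opposite strand, lay at 160 ± 16.8 and 189 ± 4.63 CPM (edgeR adjusted p = 0.225), while Acsbg1 had 4 counts in all in the MLL-ENL libraries. Ggt1, 3.14 kb from Ggt5 and of the same family, had 19 and 12 against 16 and 13 counts (edgeR adjusted p = 0.784).

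Beyond the nearest protein-coding genes, the lincRNA 9330102E08Rik, 26.1 kb from Tspan9, rose from 0.261 and 0.320 to 0.987 and 1.33 CPM (edgeR adjusted p = 0.0189). That call ended without dYEATS replicate 2 (0.0966) and with limma on log2(FPKM + 1) (0.0690). Near Tmem267 both annotated copies of Nnt, the mitochondrial transhydrogenase gene, fell (log2 fold change -1.23 and -1.20, edgeR adjusted p = 0.0150 and 0.00803), and they overlap each other, so their split of reads is uncertain. The former call ended with limma on log2 FPKM (highest adjusted p = 0.0600). Hmgcs1, an enzyme of cholesterol synthesis 79.3 kb from Tmem267, fell from 222 and 220 to 157 and 157 CPM, a call that ended in 4 of 10 other fits (highest adjusted p = 0.557 with edgeR). Camkk2, 39.7 kb from P2rx7, had a log2 fold change of -0.64 (edgeR adjusted p = 0.0470) and was called in 5 of 10 other fits.

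Genes that share the letters of a member's symbol, called relatives here, were examined in the same way. Such letters can join unrelated genes and miss related ones. Of 107 such relatives under 8 symbols 35 were tested, 3 (8.57%) rose and 5 (14.3%) fell, where 7.04% and 9.84% of all genes tested did. Leaving out MLL-ENL replicate 1 gave 12 that rose and 13 that fell, leaving out MLL-ENL replicate 2 gave 9 and 14, and leaving out either dYEATS library gave 1 that rose. Of all genes tested 26.9% then rose and 27.7% fell without the former library, 33.6% and 32.9% without the latter, and about 4% rose without either dYEATS library. Among claudins, Cldn15 rose from 18.5 ± 4.17 to 45.7 ± 1.75 CPM (log2 fold change 1.31, edgeR adjusted p = 0.00844), Cldn34c1 fell from 2.52 to 0.137 CPM (-4.15, adjusted p = 0.00229) and Cldn12 was not called. Prrg1, the relative of Prrg4 on the X chromosome, fell from 14.5 ± 3.59 to 4.59 ± 0.371 CPM (edgeR adjusted p = 0.00739; 0.0516 and 0.0608 with limma on log2 FPKM). Of 10 tested Rgs genes, Rgs10 rose and Rgs11 and Rgs7bp fell. Rgs7bp, which binds RGS proteins and is none itself, had 14 and 14 against 0 and 0 counts (edgeR adjusted p = 0.0128; 0.322 and 0.0783 with limma on log2 FPKM). The calls of Rgs10 and Rgs11 ended without dYEATS replicate 1 or 2 (log2 fold change 0.87 and 0.82, and -0.60 and -0.80). That of Rgs11 also ended with DESeq2 (adjusted p = 0.0878), without a filter (edgeR adjusted p = 0.0513) and with limma on log2 FPKM (0.357 and 0.371). Celf5 rose from 0.0729 to 0.465 CPM on 2 and 2 against 13 and 14 counts, a call that was lost with DESeq2 (0.119) and without dYEATS replicate 1 or 2 (edgeR adjusted p = 0.0690 and 0.107), while Celf1 and Celf2 were not called. Of 9 tested tetraspanins, Tspan7 fell on 11 and 12 against 2 and 1 counts and 8 were not called. The call of Tspan7 ended with DESeq2 (0.109) and without dYEATS replicate 1 or 2 (edgeR adjusted p = 0.0690 and 0.167). None of 7 tested Tcf genes was called by edgeR at an adjusted p under 0.05, but most of them share only the symbol with Tcf7l2. Its close relative Tcf7 had 37 and 44 against 43 and 65 counts. Tcf7l1, with 5 and 1 against 1 and 1 counts, was not tested. No relative of Mrgpra2b passed the filter.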

How the data were processed

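Poly(A) RNA-seq of 4 libraries, 2 per group, was analysed from the table of expected counts that the authors deposited with RSEM 1.3.3 after cutadapt 2.3, FastQC 0.11.8 and STAR 2.7.8a on GRCm38, per the submitters' processing notes. The deposited expected counts were whole numbers (100% of values). FPKM values deposited by the authors are counts scaled by gene length and depth and served for levels per length and for limma 3.58.1 on log2(FPKM + 1) or log2(FPKM + 0.1); the authors' values are linear, and log2 was taken here. Neither annotation release nor strand setting is given in the sources used here. Of 55426 gene identifiers, 55240 matched GENCODE M21, which gave positions, and 33627 genes were at 0 in all libraries.

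The members and all lists were chosen with earlier results of these data known, and the gene classes were set after the members were seen. Differences were fitted across 13245 genes that passed filterByExpr with edgeR 4.0.16 (R 4.3.3, TMM scaling, quasi-likelihood test, Benjamini-Hochberg adjusted p under 0.05). The fit was also run on simulated counts with equal spread in both groups, unlike these libraries, so that run does not bear on the calls here. CPM use TMM-scaled totals. Ratios are of summed counts with 95% exact binomial intervals, and a gene at 0 was set at 3 counts per library. Named were all members, called flanking genes and relatives with the largest changes, some but not all flanks of the 20 most abundant members, the 5 genes on either side of each threshold, and checks of the lines. Overlapping genes, genes within 100 kb and copies were named after their values were seen. Alternatives were DESeq2 1.42.0, its size factors, no filter, a replicate block, limma, other thresholds and leaving out each library.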

Additional observations from a re-analysis of the deposited data

How the results depend on the processing

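The number of genes selected follows the thresholds. It was 46 with a minimum of 30 counts, 12 with 100, 14 with an MLL-ENL sum of at most 5 and 36 with at most 20, and 20 when the counts were first divided by the TMM-scaled library size. Without 1 library, which can only relax the rule, it was 26 to 43. Over the whole table, genes called higher ranged from 548 to 4598 and genes called lower from 844 to 4501 without 1 library, where 1 group had a lone library assumed to vary like the other group. Flanking genes called higher then ranged from 1 to 16 and called lower from 1 to 6, and relatives called higher from 1 to 12 and called lower from 5 to 14. With limma, 837 genes (6.32%) were called lower on log2(FPKM + 1). With either pseudocount 1 of 25 tested flanking genes was called higher (4%, against 4.75% and 4.79% of all genes tested). Of 35 tested relatives 2 were called lower with either (5.71%, against 6.32% and 6.60%). Of the 61 tested genes within 100 kb, 6 (9.84%) were called lower, where 9.84% of all genes tested were. They include both overlapping annotated copies of Nnt. Among flanks of members that share under 10% of their words, 3 of 18 (16.7%) were called higher and 2 (11.1%) lower. This alternative was chosen after seeing the data, and over all genes tested the shares were 7.04% and 9.84%. The cause of these shifts was not tested.

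The replicate numbers showed no sign of pairing: same-numbered libraries had a correlation of deviations from the group means of -0.0677. The dYEATS libraries differed little beyond counting error (chi-square per degree of freedom 1.99), so this value cannot show that the libraries are unpaired. With the number as a replicate block, 1435 genes (10.8%) were called higher over the table and 1698 (12.8%) lower. Of 25 tested flanking genes 6 (24%) were then called higher and 3 (12%) lower. Of 35 tested relatives 5 (14.3%) were called higher and 8 (22.9%) lower. The few counts in the MLL-ENL libraries, at most 10 summed, limit the precision of every ratio of the members. Genes with more than about 3 counts per library in neither group were not detectable at this depth.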
